A study of Mus musculus with 16 samples.

Results

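The first 3 hours without amino acids were examined in N25/2, an immortalized line of embryonic mouse hypothalamic cells, from 6 of the 16 arrays of the series. The 6 arrays were chosen by their titles: 1 array of cells kept in medium with amino acids (control) and 1 array of cells kept in medium lacking them (deprived) at each of 1, 2 and 3 h. This gave 3 control and 3 deprived arrays, compared as 3 pairs with the hour as a block. The comparison asks which transcripts differ within the first hours of amino acid starvation, and whether they do so at each hour or at 1 hour only. Before treatment, all cells had been grown in Dulbecco's modified Eagle's medium with fetal bovine serum, penicillin-streptomycin and amphotericin. The other 10 arrays, 4 control and 4 deprived at 5 h and 1 of each at 16 h, are used only where stated. Each condition at 1 to 3 h was 1 sample, so no single hour had a replicate of its own. Whether samples were separate cultures is not stated in the labels, so the spread behind each p-value is that between these samples and may be partly technical. In the test of the 3 pairs, this spread is how far the deprived minus control difference varies between hours, not replicate error. That test and its SE therefore favour genes with the same difference at each hour and count a growing or shrinking difference as spread. N25/2 is 1 cell line, and in such bulk samples fewer cells of a kind and less RNA per cell cannot be told apart.

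A cell that runs short of amino acids is sensed in several ways. Uncharged transfer RNA activates the kinase GCN2 (Eif2ak4), which phosphorylates the initiation factor eIF2alpha, lowers general protein synthesis and favours translation of the transcription factor ATF4. ATF4 works with C/EBP partners at composite C/EBP-ATF elements in genes for amino acid transport, synthesis and stress control. In parallel, the kinase complex mTORC1 is turned down, and FOXO factors and TFE factors can become active. Immediate early genes and the feedback inhibitors of the growth factor cascade ending in the kinase ERK are transcribed within minutes of a stimulus and have short-lived transcripts, which makes them early readouts of a change of medium.

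Values are the deposited log2 levels of robust multi-array average (RMA), and differences are deprived minus control on that log2 scale, where 1 is a doubling. They covered 19938 named genes, with array medians between 7.02 and 7.12 over the 16 arrays. A level depends on a gene's own probes, so changes were read between arrays, and the marker levels below are only a rough description of the cells, from which no cell type was read. They are mean log2 levels over the 6 arrays, beside a median over all genes of about 7.47. Of 12 neural progenitor markers, 8 were above that median, among them Nes at 10.44 and Sox2 at 10.67, while Pax6 at 5.95, Fabp7 at 7.09, Msi1 at 7.12 and Prom1 at 5.39 were below it. Of 12 neuron markers 2 were above it, Map2 at 9.66 and Stmn2 at 12.34, and Rbfox3 was at 6.45. Of 15 hypothalamic neuron genes 3 were above it, with Pomc at 6.54, Npy at 7.29 and Oxt highest at 8.30. Of 10 mesenchymal markers 7 were above it, from Lum at 4.51 to Acta2 at 13.51. Of 10 glial markers Slc1a3 alone was above it at 11.89, with Gfap at 6.38, and of 10 immune and endothelial markers Cd68 alone at 9.58, with Ptprc at 5.56. No gene of these 6 marker lists passed the test for the mean of 1 to 3 h, which 0.176% of all genes passed. The list medians lay between -0.10 and 0.13 at each hour.

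Across the 3 pairs, 35 of 19938 genes (0.176%) differed between deprived and control cells at a Benjamini-Hochberg adjusted p below 0.05 in limma, 10 higher (0.0502%) and 25 lower (0.125%). The rises held ATF4 pathway genes such as Chac1 and Sesn2, and the falls held the alpha-arrestin Arrdc3, the growth factor-induced gene Phlda1, the hyaluronan synthase Has2 and secreted signals including Lif, Ccl2, Fgf7 and Il33. All 35 had 1 sign at all 3 hours. The control and deprived levels of 24 of the 35 did not overlap over the 6 arrays, compared with 8.96% of all genes. The 35 were picked on these same arrays by a test that favours equal differences, so neither count is separate support for them. The number of calls was unstable: it was 536 without the 1 h pair (1.24% of genes higher, 1.44% lower), 5 without the 2 h pair (0.00502% and 0.0201%) and 100 without the 3 h pair (0.115% and 0.386%). It was 0 without the hour as a block, and 0 when unnamed rows, those with no gene symbol or with several, were tested as well. At an unadjusted p below 0.05 there were 2154 genes.

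**Figure D1:**
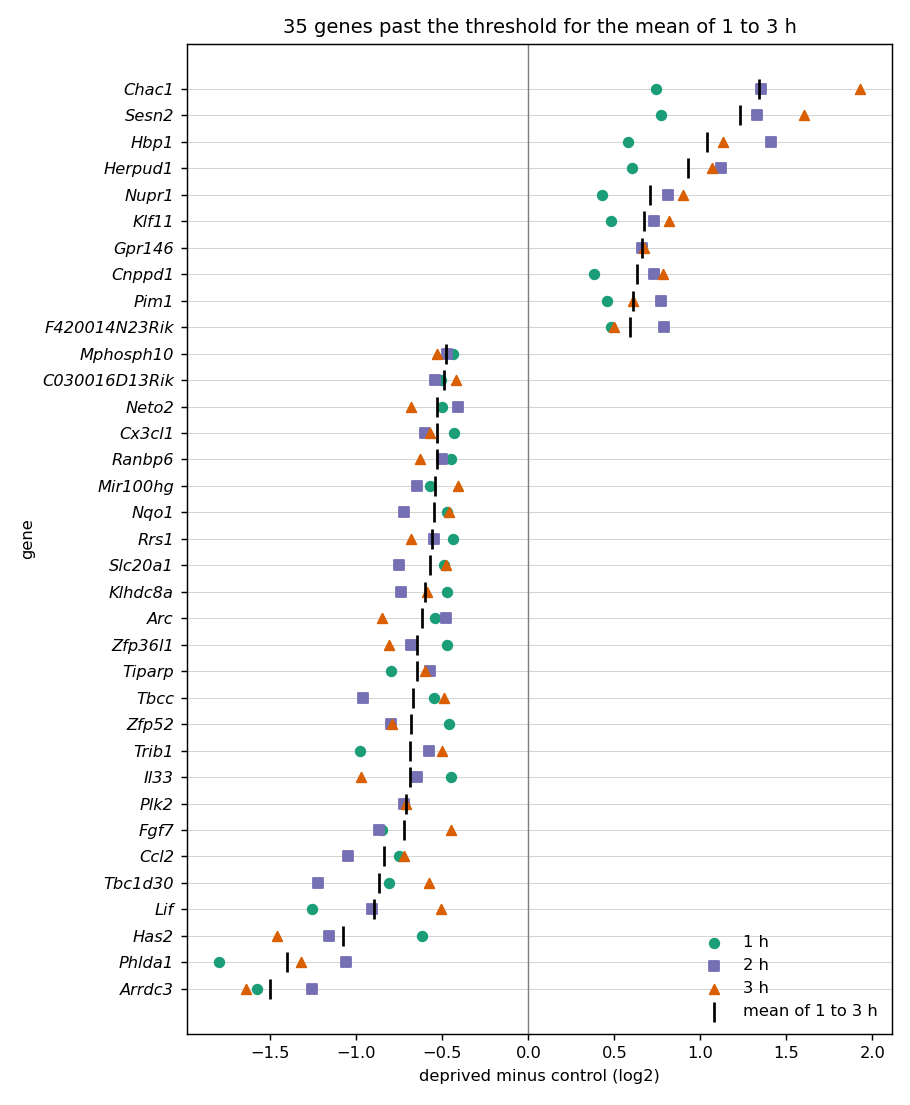
Deprived minus control difference (log2) of each of the 35 genes past the threshold for the mean of 1 to 3 h, with 1 symbol per hour and a bar for the mean. The rises of Chac1 and Sesn2 are smallest at 1 h and largest at 3 h, Gpr146 and Plk2 have nearly the same difference at each hour, and no gene crosses 0.

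Because several of the rises are known ATF4 targets, the start regions of the called genes were searched for the letters TGATGNAA, the core shared by many C/EBP-ATF elements, on both strands from 250 bases before to 50 after each start. Promoters came from RefSeq on build GRCm38.p6 and matched 15563 of the 19938 genes. The letters occurred in 3 of 13 promoters of the 10 rises (23.1%), in 0 of 24 promoters of the falls, which cover 18 of those 25 genes, and in 3.08% of 19116 promoters of all genes. The 3 belong to Chac1, Herpud1 and Nupr1, and in each the match reads TTGCATCA on the gene's strand. The 250 bases before their starts are shown because these genes rose at every hour, beside those of Slc7a11, whose window has the letters in both directions. The positions are chr2:119350992-119351241 (plus strand) for Chac1, chr8:94386179-94386428 (plus strand) for Herpud1, chr7:126625471-126625720 (minus strand) for Nupr1 and chr3:50443614-50443863 (minus strand) for Slc7a11. Capitals mark the match, and each sequence runs 5′ to 3′ on the gene's strand.
Chac1: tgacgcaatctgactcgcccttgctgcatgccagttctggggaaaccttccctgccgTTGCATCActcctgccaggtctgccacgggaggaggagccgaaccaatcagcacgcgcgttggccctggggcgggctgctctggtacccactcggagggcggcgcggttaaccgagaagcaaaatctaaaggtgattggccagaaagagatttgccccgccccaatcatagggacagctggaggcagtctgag
Herpud1: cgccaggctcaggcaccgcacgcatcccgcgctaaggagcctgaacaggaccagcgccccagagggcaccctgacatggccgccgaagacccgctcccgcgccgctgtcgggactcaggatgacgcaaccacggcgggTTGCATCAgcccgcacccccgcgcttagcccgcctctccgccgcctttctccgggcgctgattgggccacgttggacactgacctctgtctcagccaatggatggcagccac
Nupr1: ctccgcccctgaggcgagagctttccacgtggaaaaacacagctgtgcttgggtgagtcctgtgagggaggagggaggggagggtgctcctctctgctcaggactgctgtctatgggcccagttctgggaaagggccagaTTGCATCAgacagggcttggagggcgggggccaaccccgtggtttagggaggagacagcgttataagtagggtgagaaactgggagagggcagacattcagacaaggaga
Slc7a11: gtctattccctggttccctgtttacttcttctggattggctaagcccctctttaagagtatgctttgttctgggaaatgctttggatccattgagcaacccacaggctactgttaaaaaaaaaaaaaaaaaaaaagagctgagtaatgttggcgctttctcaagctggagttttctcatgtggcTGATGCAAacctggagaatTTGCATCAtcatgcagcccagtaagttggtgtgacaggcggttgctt
Counted from the start, the first matching base was at -193 in Chac1, -112 in Herpud1 and -110 in Nupr1. In Slc7a11 the matches began at -66 and -47. Among 47 measured genes of the amino acid response list, 13 of 51 promoters (25.5%) held the letters. That list was written with known ATF4 targets and earlier results of these data in view. A match is a description of the sequence and not a shown binding site. The window of Sesn2 had no match, which says only that these letters are not in it.

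Chac1, which codes for an enzyme that degrades glutathione and is a well-known target of ATF4, had the largest mean rise. Its log2 level was 10.53, 10.18 and 9.95 in control cells at 1, 2 and 3 h and 11.27, 11.53 and 11.88 in deprived cells. Every deprived array was above every control array, and the 2 courses moved apart because control levels were lower and deprived levels higher at each later hour. The differences were 0.74, 1.35 and 1.93, with a mean of 1.34 ± 0.18 (SE, 3 pairs; limma adjusted p = 0.0366), or 2.53-fold. Sesn2, which codes for sestrin 2, a leucine-binding inhibitor of mTORC1, had levels of 9.24, 8.99 and 9.07 in control and 10.01, 10.32 and 10.67 in deprived cells. Its groups did not overlap either, and the control level stayed within a narrow range while the deprived level was higher at each hour. The mean rise was 1.23 ± 0.13 (limma adjusted p = 0.0227), or 2.35-fold. Sesn2 passed in 12 of 14 alternative settings, the most of any of the 35 genes.

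Herpud1 codes for a membrane protein of the endoplasmic reticulum that takes part in the disposal of misfolded proteins. Its levels were 10.56, 10.52 and 11.03 in control and 11.16, 11.65 and 12.10 in deprived cells, so that the highest control array lay just under the lowest deprived one. The mean rise was 0.93 ± 0.10 (limma adjusted p = 0.0259). Nupr1, a small stress-induced chromatin protein, was at 10.86, 10.98 and 11.07 in control and 11.30, 11.79 and 11.97 in deprived cells. The control arrays of Nupr1 differed little between hours, and all deprived arrays were above them. Its differences were 0.43, 0.81 and 0.90, with a mean of 0.71 ± 0.10 (limma adjusted p = 0.0406).

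Hbp1, a transcriptional repressor linked to cell cycle arrest and FOXO activity, had a step between 1 and 2 h. Control levels were 9.31, 9.31 and 9.56, and deprived levels were 9.89, 10.72 and 10.69. The groups did not overlap, and the differences of 0.58, 1.41 and 1.13 gave a mean of 1.04 ± 0.13 (limma adjusted p = 0.0366). Gpr146, an orphan receptor, was at 7.34, 7.10 and 7.08 in control and 8.0, 7.76 and 7.76 in deprived cells. Its difference was nearly constant at 0.66, 0.66 and 0.67 (mean 0.66 ± 0.07, limma adjusted p = 0.0182), already complete at the first hour measured. The other rises were Klf11 (mean 0.67 ± 0.08), Cnppd1 (0.63 ± 0.09), the kinase gene Pim1 (0.61 ± 0.08) and the RIKEN transcript F420014N23Rik (0.59 ± 0.08), with limma adjusted p between 0.0366 and 0.0425. Of the 10 rises, 6 had a difference that was larger at each later hour, against 18.0% of all genes, and 0 had their largest difference at 1 h.

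**Figure D2:**
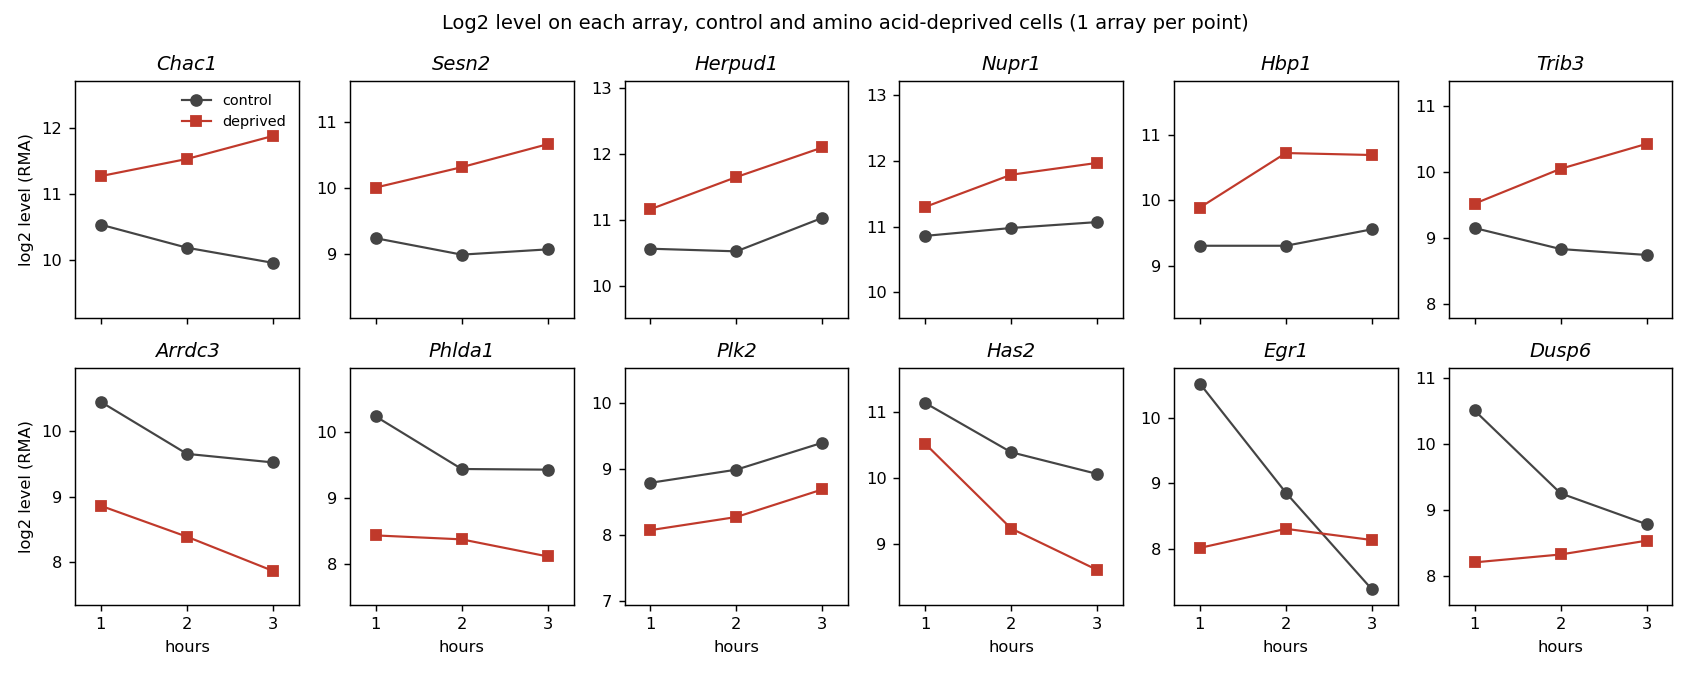
Log2 level (RMA) on each of the 6 arrays for 12 genes, with control in grey circles and deprived in red squares at 1, 2 and 3 h, 1 array per point, on y axes of equal span. Chac1, Sesn2 and Trib3 separate progressively, Arrdc3 and Plk2 run in parallel in both treatments, and Egr1 and Dusp6 drop in control cells while they stay flat in deprived cells.

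Arrdc3 showed the largest mean fall and the smallest adjusted p. It codes for an alpha-arrestin, an adaptor for the removal of receptors and transporters from the cell surface, and is a known FOXO target. Control levels were 10.44, 9.65 and 9.52 and deprived levels 8.86, 8.39 and 7.87. All deprived arrays were below all control arrays, and both treatments had lower levels at later hours. The differences of -1.58, -1.26 and -1.64 had a mean of -1.50 ± 0.09 (limma adjusted p = 0.000755), so that the deprived level was 0.355 times the control level.

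Phlda1, which codes for a pleckstrin homology-like protein induced by growth factor signalling, was at 10.24, 9.44 and 9.43 in control and 8.43, 8.37 and 8.11 in deprived cells. The groups were far apart, and the deprived level varied less between 1 and 2 h than the control level did. The mean fall was -1.40 ± 0.12 (limma adjusted p = 0.0116). Lif, a cytokine of the interleukin-6 family, was at 8.0, 7.76 and 7.30 in control and 6.74, 6.84 and 6.79 in deprived cells. Deprived Lif was flat, and its difference shrank from -1.26 at 1 h to -0.51 at 3 h as the control level came down (mean -0.90 ± 0.12, limma adjusted p = 0.0407).

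Has2, which codes for a hyaluronan synthase, took the opposite course. Its control levels were 11.14, 10.39 and 10.06 and its deprived levels 10.52, 9.23 and 8.60. The groups overlapped because the deprived array at 1 h was above the control arrays at 2 and 3 h, but each pair had a larger difference than the one before (-0.62, -1.16 and -1.46; mean -1.08 ± 0.13, limma adjusted p = 0.0366). Plk2, a polo-like kinase gene, was higher at each later hour in both treatments, from 8.79 to 8.99 and 9.40 in control and from 8.07 to 8.27 and 8.69 in deprived cells. The deprived array at 3 h was just under the control array at 1 h, so the groups did not overlap, and the difference within each hour was almost the same, -0.72, -0.72 and -0.71 (mean -0.71 ± 0.07, limma adjusted p = 0.0166).

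The remaining 20 falls included 4 genes of secreted signals, Ccl2, Fgf7, Il33 and Cx3cl1. The chemokine gene Ccl2 was at 9.66, 9.52 and 8.77 in control and 8.91, 8.47 and 8.05 in deprived cells. Its groups overlapped because control cells at 3 h were below deprived cells at 1 h, and the mean fall was -0.84 ± 0.08 (limma adjusted p = 0.0181). Fgf7, a fibroblast growth factor, fell by 0.72 ± 0.09 on the log2 scale, the alarmin Il33 by 0.69 ± 0.10 and the membrane-bound chemokine Cx3cl1 by 0.53 ± 0.07. Tbc1d30, a gene for a Rab GTPase-activating protein, fell by 0.87 ± 0.11. Trib1, the pseudokinase gene related to Trib3, fell by 0.69 ± 0.10 while Trib3 was higher. Zfp36l1, which codes for a protein that promotes decay of AU-rich transcripts, fell by 0.65 ± 0.08, Tiparp by 0.65 ± 0.08, and the neuronal immediate early gene Arc by 0.62 ± 0.09. These had limma adjusted p between 0.0310 and 0.0425. The other falls were Zfp52, Tbcc, Klhdc8a, the phosphate transporter gene Slc20a1, the ribosome assembly genes Rrs1 and Mphosph10, the NRF2 target Nqo1, Mir100hg, Ranbp6, Neto2 and C030016D13Rik, with means from -0.68 to -0.48. The largest difference of a fall was at 1 h for 5 genes, at 2 h for 11 and at 3 h for 9.

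A second, untested measure asked which genes moved alike at all 3 hours, taken as 1 sign and at least 0.5 (1.41-fold) in every pair. It held for 17 genes (0.0853%), 6 higher (0.0301%) and 11 lower (0.0552%), and 13 of these also passed the test. Beside the genes above these were Ccng2 among the rises and Smim3, Aldh3a1 and Snai1 among the falls, none of which passed. Ccng2, a cyclin G gene and FOXO target, had differences of 0.61, 1.45 and 0.71 (limma adjusted p = 0.0505). Aldh3a1, an aldehyde dehydrogenase gene, had -0.54, -1.77 and -1.01, and Snai1, the gene of a repressor of epithelial genes, -1.28, -0.59 and -0.62. At a minimum of 1, only Arrdc3 and Phlda1 remained, and at 0.3 the number was 114. The smallest differences inside the limit were 0.51 for Smim3 and for Lif, and just outside it were Trib1 at 0.50 and Ereg and Tbcc at 0.49, before rounding below 0.5.

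The amino acid response list, 47 measured genes known to depend on ATF4 or its partners, had a median difference of 0.08 at 1 h, 0.32 at 2 h and 0.63 at 3 h, against 0.01, -0.01 and 0.02 over all genes. The list was written from general knowledge with earlier results of these data known, so it is not independent of them. Of the 47 genes, 3 were higher by at least 0.5 at 1 h (against 0.226% of all genes), 18 at 2 h (0.787%) and 27 at 3 h (0.843%). The difference was larger at each later hour for 37 of the 47, against 18.0% of all genes. The list's mean log2 level in control cells was 10.23, 10.22 and 10.18, and in deprived cells 10.32, 10.66 and 10.87, so that the growing gap lay in the deprived arrays. Past the test for the mean of 1 to 3 h were 4 members, all higher (against 0.0502% of all genes), namely Chac1, Sesn2, Herpud1 and Nupr1. The count was 26 without the 1 h pair, 1 without the 2 h pair and 7 without the 3 h pair. Over all genes, 1.24%, 0.00502% and 0.115% were called higher in these settings.

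Within the list, the transcription factors themselves had modest early differences. Atf4 was at 10.08, 9.95 and 9.93 in control and 10.40, 10.48 and 10.61 in deprived cells, with a mean difference of 0.51 ± 0.08 (limma adjusted p = 0.0575). The deprived arrays were all above the control arrays, although the test was missed. Ddit3, which codes for CHOP, had differences of 0.34, 0.71 and 1.27 (limma adjusted p = 0.0756). Atf3, another stress-induced factor of this family, had -0.26, 0.54 and 1.54, and Cebpb had 0.04, 0.04 and 0.39.

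Trib3, which codes for a pseudokinase that dampens ATF4 and CHOP, was at 9.15, 8.83 and 8.74 in control and 9.52, 10.05 and 10.43 in deprived cells. Its groups did not overlap, and its differences of 0.37, 1.22 and 1.69 had a mean of 1.09 ± 0.19 (limma adjusted p = 0.0688). Ppp1r15a, the eIF2alpha phosphatase subunit GADD34, had 0.00 at 1 h, 1.07 at 2 h and 1.33 at 3 h. Gadd45a, a growth arrest gene, had 0.37, 1.34 and 1.21 (limma adjusted p = 0.0566). These genes thus differed little at 1 h and by more than 1 at 2 and 3 h, and none passed the test of the 3-hour mean. In that test a difference that changes between hours counts as spread.

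Among metabolic and transport genes of the list, Asns, asparagine synthetase, was at 12.20, 12.30 and 12.38 in control and 12.04, 12.55 and 12.86 in deprived cells. Its groups overlapped, with differences of -0.16, 0.24 and 0.48. The cystine carrier gene Slc7a11 had -0.07, 0.57 and 1.29, the cationic carrier gene Slc7a1 0.16, 0.28 and 0.73, and the heavy-chain gene Slc3a2 -0.01, 0.30 and 0.43. Slc38a2, the neutral amino acid carrier SNAT2, had 0.23, 0.68 and 0.63 (limma adjusted p = 0.0756), and Vldlr had 0.09, 0.19 and 0.67. None of these transporter genes passed, nor did any of the 52 amino acid transporter genes or the 18 cytosolic tRNA synthetase genes. The share of all genes that passed was 0.176%. The synthetase list had medians of -0.08, 0.10 and 0.13, and at 5 h 12 of its 18 members were higher past the threshold, against 2.41% of all genes.

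**Figure D3:**
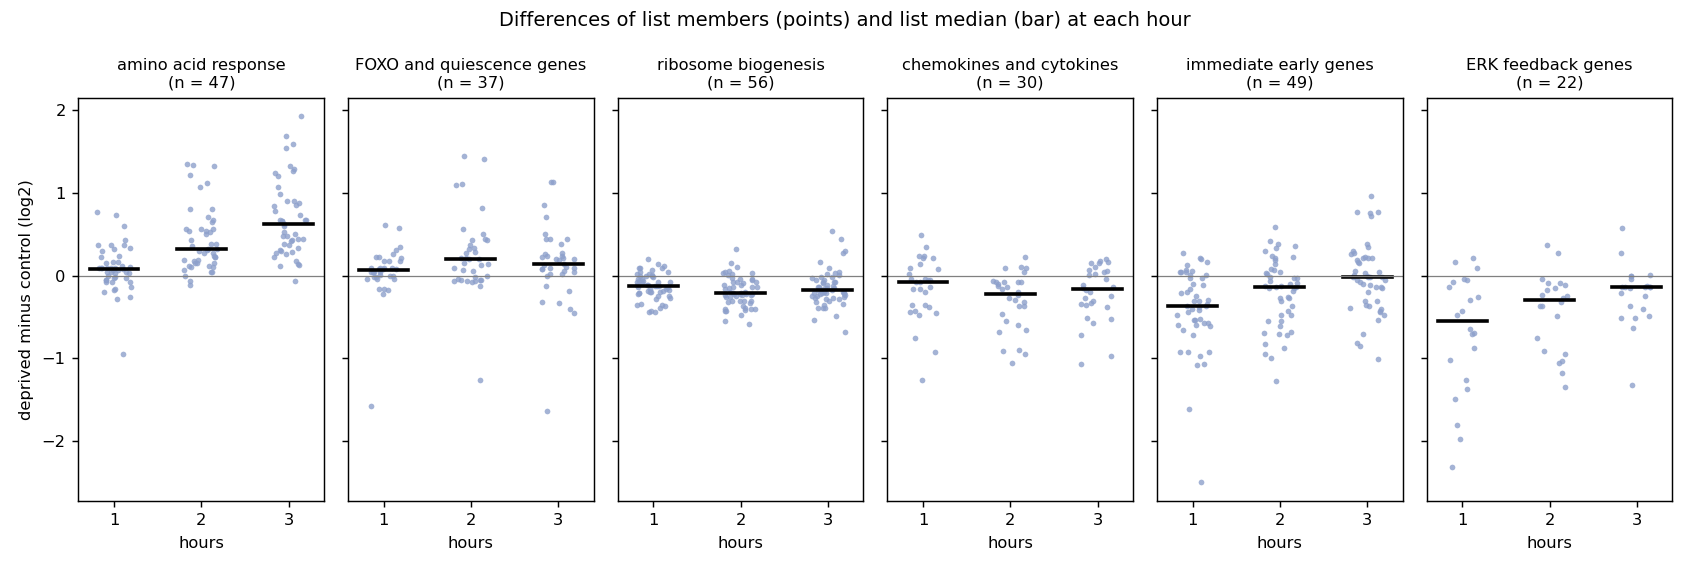
Deprived minus control difference (log2) of every measured member of 6 gene lists at 1, 2 and 3 h, with the list median as a black bar. The median of the amino acid response list goes from 0.08 to 0.63, while those of the immediate early list and the ERK feedback list go from -0.36 and -0.55 at 1 h toward 0.

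Immediate early genes and ERK feedback genes had the reverse time course. The 22 measured ERK feedback genes, which include dual-specificity phosphatases, Sprouty genes and growth factor ligands, had medians of -0.55, -0.29 and -0.14. Of these, 11 were lower by at least 0.5 at 1 h (against 0.557% of all genes), 7 at 2 h (0.978%) and 4 at 3 h (1.10%). The 49 immediate early genes had medians of -0.36, -0.13 and -0.02, with 18, 12 and 5 lower by at least 0.5. By that much 0, 1 and 5 of them were higher. Past the test for the 3-hour mean were 2 ERK feedback genes, both lower (Phlda1 and Lif), and 3 immediate early genes, all lower (Plk2, Zfp36l1 and Arc). Of all genes, 0.125% were called lower in this test.

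The levels show on which arrays the differences lay. The ERK feedback list had a mean log2 level of 9.52, 9.19 and 8.88 in control cells and 8.82, 8.75 and 8.66 in deprived cells. From the 1 h to the 3 h array the median change of a member was -0.63 in control cells and -0.19 in deprived cells, and 13 members in control but 2 in deprived cells were lower by at least 0.5. For the immediate early list these medians were -0.51 and -0.12, with 25 and 8 genes lower by at least 0.5. The amino acid response list had the reverse pattern, with medians of -0.06 in control and 0.57 in deprived cells. Over all genes the medians were -0.04 and -0.03, and 344 in control and 495 in deprived cells, of 19938, were lower by at least 0.5. Each of these changes compares single arrays. The departure of the 3 h arrays from the earlier hours correlated across genes with that of the 5 h arrays numbered 4, described below. The correlation was 0.52 in control and 0.42 in deprived cells. Whether this bears on the changes of these lists was not tested.

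Egr1, the prototype immediate early transcription factor gene, gives the clearest case. Its control level was 10.52, 8.86 and 7.39 at 1, 2 and 3 h, and its deprived level 8.02, 8.31 and 8.14. Deprived cells were far below control cells at 1 h, slightly below at 2 h and above them at 3 h, with differences of -2.50, -0.55 and 0.76. Dusp6, the ERK phosphatase gene, was at 10.51, 9.25 and 8.78 in control and 8.20, 8.32 and 8.53 in deprived cells. It too was flat in deprived cells, and its groups did not overlap. Errfi1, a feedback inhibitor of the EGF receptor, was at 11.87, 11.34 and 10.79 in control and 10.38, 10.85 and 10.64 in deprived cells. Ereg, an EGF-family ligand, was at 9.68, 9.12 and 8.15 in control and 7.69, 7.77 and 7.66 in deprived cells, close to constant in the latter. Fos itself had differences of -0.44, -0.12 and 0.22, and Myc of -0.16, 0.36 and 0.77.

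**Figure D4:**
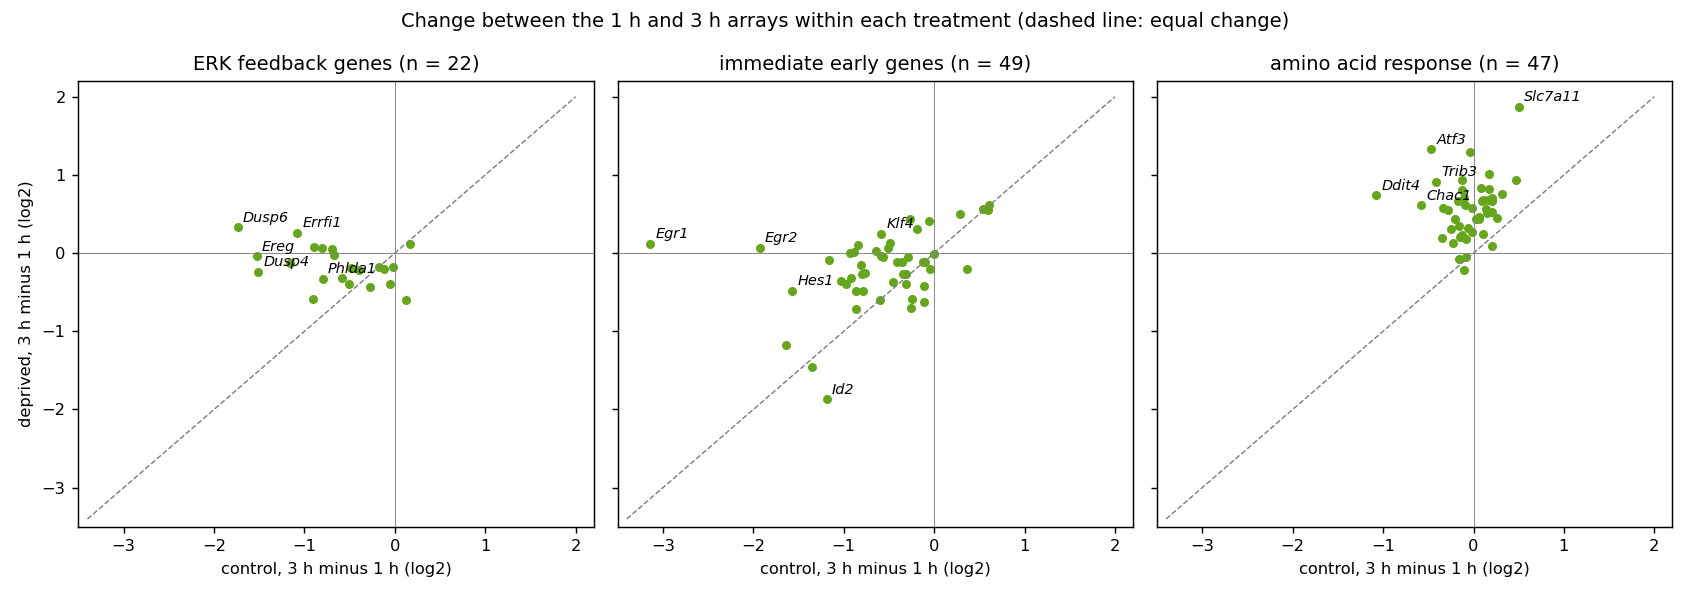
Change from the 1 h array to the 3 h array within control cells (x axis, log2) and within deprived cells (y axis, log2) for members of 3 gene lists, 1 point per gene, with a dashed line of equal change. Egr1 (-3.14 in control, 0.12 in deprived) and Dusp6 (-1.74 and 0.33) lie far to the left near 0 on the y axis, whereas most amino acid response genes lie near 0 on the x axis and above 0 on the y axis.

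To ask whether a difference at 1 hour departs from that at the others, a fit over all 16 arrays was used, in which the spread between arrays came from the 5 h groups because no other group had more than 1 array. It called 0 genes at 1 h, 0 at 2 h and 0 at 3 h in limma (197, 387 and 423 at an unadjusted p below 0.05), and 0 for each contrast between hours. The 5 h arrays numbered 4 lay apart from the rest in both treatments. With the 5 h array number as a block, 28 genes were called at 1 h (0.140%), 85 at 2 h (0.426%) and 30 at 3 h (0.150%). Of these, 3 were higher (0.0150%) and 25 lower (0.125%) at 1 h, 31 higher (0.155%) and 54 lower (0.271%) at 2 h, and 22 higher (0.110%) and 8 lower (0.0401%) at 3 h. Without both arrays numbered 4 these counts were 35, 96 and 50. Both versions assume that single arrays at 1 to 3 h vary as the 5 h arrays do. The block also takes out of the spread what same-numbered 5 h arrays share. It thus assumes that the control and deprived arrays of each early hour share such an effect, which the labels do not state.

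With the block, the called differences changed from mostly falls at 1 h to mostly rises at 3 h. The falls at 1 h included Egr1, Dusp6, Ereg, Arrdc3, Errfi1, the EGF-family ligand gene Hbegf at -1.37, the ERK inhibitor gene Spry1 at -1.02 and the prostaglandin synthase gene Ptgs2 at -0.92. Of the ERK feedback list 6 members were called lower at 1 h, 4 at 2 h and 0 at 3 h. Of the amino acid response list 0 were called higher at 1 h, 9 at 2 h and 12 at 3 h. Other rises called at 2 h included Klhl24 at 1.11, the ubiquitin ligase gene Fbxo32 at 0.82, the folliculin partner Fnip1 at 0.90 and Trp53inp1 at 0.89. The 2 h falls held the ERK-dependent factors Etv1 at -1.18 and Etv5 at -1.03 and the chemokine gene Ccl7 at -0.95. At 3 h Flcn (folliculin) at 1.04, Atf5 at 1.24 and the cystathionine lyase gene Cth at 0.99 were called. Over the 3 hours 121 genes were called at least once, 17 at both 2 and 3 h, 4 at both 1 and 2 h and 2 at both 1 and 3 h. Each of these overlaps includes Arrdc3, the 1 gene called at all 3 hours. The overlaps do not ask for the same sign: Ddit4, the other gene called at both 1 and 3 h, was at -0.94 and 0.88. Genes named here for a single hour were chosen after their values were seen.

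The difference between hours was itself called for 10 genes at 1 h against the mean of 2 and 3 h with the block (0.0502%), and for 0 without it. For Egr1 the 1 h difference minus the mean of the later ones was -2.60 ± 0.16 (limma adjusted p = 0.000124 with the block, 1.00 without it and 9.68e-05 without the arrays numbered 4). Dusp6, Stk40, Ddit4, Hes1, Errfi1 and Ndel1 were also lower at 1 h than later, by values from -1.72 to -1.12. Ddit4, an mTORC1 inhibitor gene of both the stress and the ATF4 response, turned from -0.94 at 1 h to 0.16 at 2 h and 0.88 at 3 h. Its control level came down from 10.14 to 9.57 and 9.06 while its deprived level went up from 9.20 to 9.73 and 9.94. Hes1, a Notch target and repressor, was at 10.09, 8.28 and 8.51 in control and 9.00, 8.70 and 8.52 in deprived cells, so that its groups crossed after 1 h.

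The other 3 of the 10 were small nucleolar RNAs, guide RNAs of ribosomal RNA modification and processing, and were higher at 1 h. Snora44 was at 9.87, 9.56 and 9.85 in control and 11.20, 9.54 and 9.44 in deprived cells. Snord33 was at 6.71, 7.29 and 7.43 in control and 8.24, 7.23 and 7.10 in deprived cells. Snord118, the U8 RNA, was at 6.86, 6.93 and 6.77 in control and 7.95, 6.66 and 6.44 in deprived cells. In all 3 the single deprived array at 1 h stood above the other 5 arrays. Over 51 small nucleolar RNA genes, a group formed after these values were seen, 9 were higher by at least 0.5 at 1 h (against 0.226% of all genes) and 0 lower, and at 3 h 0 were higher and 9 lower (against 1.10%), with medians of 0.05, 0.03 and -0.28. Without the 5 h arrays numbered 4, 9 genes were called for this contrast, and 6 of the 10 were among them, including Snora44 and Snord33 but not Snord118, Stk40, Errfi1 or Ndel1.

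No gene was called at 2 h against the mean of 1 and 3 h with the block, and Egr1 alone (0.00502%) at 3 h against the mean of 1 and 2 h (2.28 ± 0.16). Between 3 and 1 h, 6 genes were called (0.0301%): Egr1, Dusp6, Ddit4 and Stk40 upward and Snord33 and Snord118 downward.

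A size rule without a test described differences seen at 1 hour only, as at least 0.7 at that hour and under 0.3 at both others, among the 9969 genes above the median level. It held for 6 genes at 1 h (0.0602%), 14 at 2 h (0.140%) and 10 at 3 h (0.100%). Those of 1 h were Mir145a and Snord53 upward and Zfp36l2, Spry1, Btg2 and Nuak2 downward. Spry1 was at 9.99, 8.97 and 8.84 in control and 8.97, 8.92 and 8.84 in deprived cells, so that only the control array at 1 h stood apart. Zfp36l2, a relative of Zfp36l1 in transcript decay, had the same shape, at 12.32, 11.46 and 11.16 in control and 11.25, 11.31 and 11.16 in deprived cells. Btg2, an antiproliferative immediate early gene, was at 9.35 in control cells at 1 h and between 8.22 and 8.46 on the other 5 arrays.

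At 2 h the largest such differences were falls of the receptor modifier gene Ramp3 (-1.30), Loxl3 (-0.91), Mast4 (-0.91), Maff (-0.87) and Mylip (-0.82). The rises were Fam13c (0.85), Foxd1 (0.82), the splicing kinase gene Clk1 (0.82), Thap2 (0.79) and Cnksr3 (0.78). Ramp3 was at 7.79, 8.99 and 7.92 in control and 7.89, 7.69 and 7.68 in deprived cells, so that a single control array made its difference. At 3 h the rises were Klf4 (0.96), the secreted hormone gene Stc2 (0.78), Slc7a1 (0.73), Mafg (0.72) and Klf9 (0.72), and the falls were Medag (-0.96), Anp32-ps (-0.75), Magee1 (-0.75), Gpcpd1 (-0.72) and Mrps36 (-0.72). All 5 of these rises were higher at 5 h too, past the threshold in limma, by 0.70 (Mafg) to 1.75 (Slc7a1). Of the 5 rises at 2 h, Thap2 alone passed at 5 h. Across genes, the departure of the 3 h arrays from the mean of the other hours correlated with the departure of the 5 h arrays numbered 4 at 0.52 in control and 0.42 in deprived cells. For the 1 h arrays these values were -0.31 and -0.29, and for the 2 h arrays -0.41 and -0.13. The differences at 1, 2 and 3 h did so at -0.11, 0.10 and -0.20.

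FOXO and quiescence genes (37 measured) had medians of 0.07, 0.20 and 0.14, with Hbp1 past the test upward and Arrdc3 downward. Txnip, which like Arrdc3 codes for an alpha-arrestin, had differences of -0.22, 0.43 and 0.28 (limma adjusted p = 0.663). The mTORC1 nutrient sensing list (43) had 0.03, 0.10 and -0.02, with Sesn2 alone past the test. The ribosome biogenesis list (56) had -0.12, -0.21 and -0.17, with 43, 47 and 46 members below 0 and 2 past the test, both lower (Rrs1 and Mphosph10). Over all 19938 genes, 9373, 10329 and 9113 were below 0 at 1, 2 and 3 h. Past the test were 0.0502% of them as higher and 0.125% as lower. Rrs1 was at 9.14, 9.47 and 9.21 in control and 8.70, 8.92 and 8.53 in deprived cells, without overlap. At 5 h the list's median was 0.22 and at 16 h 0.72. Of 30 chemokine and cytokine genes 4 passed, all lower (Lif, Ccl2, Il33 and Cx3cl1; 0.125% of all genes were lower), and the medians were -0.07, -0.22 and -0.16. By at least 0.5, 3 were lower at 1 h, 8 at 2 h and 6 at 3 h, and none higher. Over all genes, 0.557%, 0.978% and 1.10% were lower by that much. Without the 1 h pair 9 were called lower, without the 2 h pair 1 and without the 3 h pair 7. The shares of all genes called lower were then 1.44%, 0.0201% and 0.386%. Lysosome, autophagy, DNA replication, mitosis, heat shock, circadian clock, cholesterol synthesis, hypoxia, one-carbon and amino acid transporter lists had 0 members past the test. The ER stress, p53 and NRF2 lists had 1 each (Herpud1, Sesn2 and Nqo1). With 0.176% of all genes past the test, a count of 0 does not show that a list was unmoved. Without the 1 h pair, 6 autophagy, 6 amino acid transporter, 5 circadian clock, 3 hypoxia and 2 one-carbon genes were called higher. The share of all genes was then 1.24%. In that setting the lysosome, mitosis, heat shock and cholesterol synthesis lists had 0 calls, and the transporter and one-carbon lists 1 lower each. DNA replication had 1 each way.

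Whether the early calls held later was read from the 8 arrays at 5 h, which the choice of the 35 genes did not use. Of all genes, 4.11% passed at 5 h in limma (2.41% higher, 1.70% lower). All 10 early rises were higher at 5 h and 9 passed, with F420014N23Rik the exception (0.37 ± 0.10, adjusted p = 0.0711). Their median difference was 0.69 at 1 to 3 h, 0.92 at 5 h and 0.98 at 16 h. For Nupr1 the 5 h difference was 1.51 ± 0.08 and for Chac1 2.12 ± 0.10 (limma adjusted p = 1.87e-05 and 1.8e-05), both larger than the early means.

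The early falls were less marked later. Of the 25, 23 were lower at 5 h and 5 passed (Phlda1, Has2, Zfp36l1, Nqo1 and Zfp52). Their median was -0.65 at 1 to 3 h, -0.32 at 5 h and -0.45 at 16 h. Phlda1 at -1.41 ± 0.21 and Has2 at -1.46 ± 0.30 were as far below control at 5 h as at 1 to 3 h. Arrdc3 was at -0.77 ± 0.19 (limma adjusted p = 0.0577), and Lif at -0.09 ± 0.13. With the 5 h array number as a block, under which 18.2% of all genes passed, 10 rises and 18 falls passed with the same sign. Rrs1 and Mphosph10 then passed in the opposite direction, at 0.51 ± 0.30 and 0.32 ± 0.15 without the block (limma adjusted p = 0.0019 and 0.0202 with it, 0.574 and 0.414 without). The 5 h calls shared with the early calls were 40.0% of the early calls and 1.71% of the 5 h calls.

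**Figure D5:**
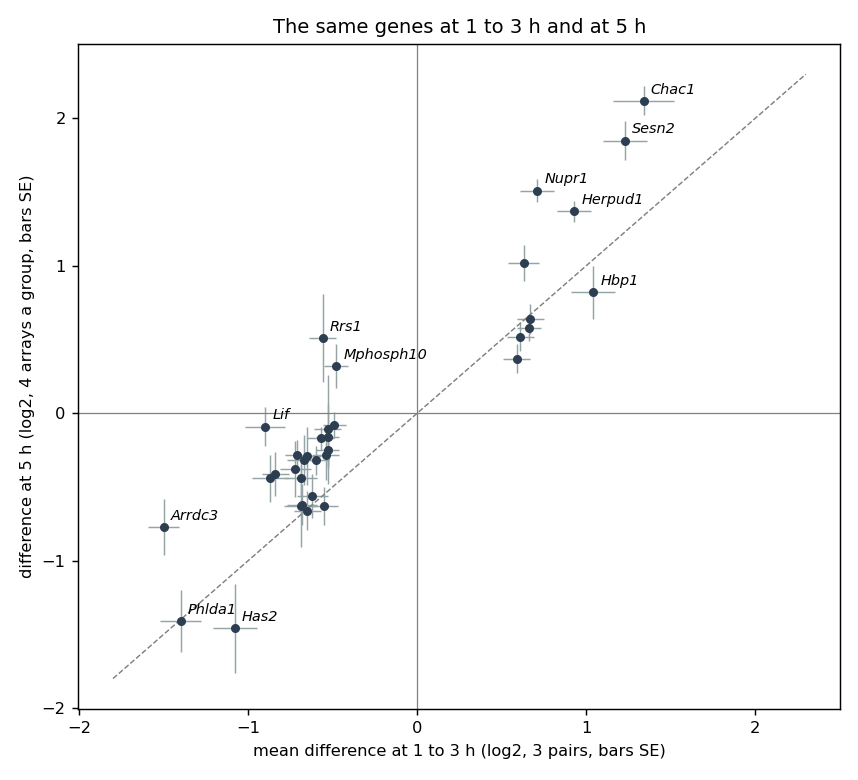
Mean difference at 1 to 3 h (x axis, log2, 3 pairs) against the difference at 5 h (y axis, log2, 4 arrays a group) for the 35 early calls, with standard errors as bars and a dashed line of equal difference. Chac1, Sesn2, Herpud1 and Nupr1 lie above the line, most falls lie between the line and 0, and Rrs1 and Mphosph10 lie above 0 at 5 h.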

How the data were processed

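Per the labels' protocols, 250 ng of total RNA gave labelled sense-strand cDNA for Affymetrix arrays that probe whole transcripts. The deposited values are log2 levels from RMA, a tool named with limma, and with no version, in the submitters' processing notes. Settings are not given in the sources used here. It has 35556 rows, 16 columns and no missing value. The platform annotation gave 1 symbol to 21789 rows, several to 1621 and none to 12146; symbols were updated through Entrez identifiers for 21698 rows and kept for 91. Where a gene had more than 1 row (999 genes), that with the highest mean stood for it, giving 19938 genes. No genome was used, and promoters are those of RefSeq.

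The 3 pairs of 1 to 3 h were fitted in limma 3.58.1 (R 4.3.3; lmFit and eBayes, 2 residual degrees of freedom) with hour and treatment as terms, two-sided, with Benjamini-Hochberg adjustment over all genes and a threshold of 0.05. Single hours and differences between hours came from a fit of group means over all 16 arrays, whose spread rests on the 5 h groups. The 5 h groups of 4 arrays each were compared in limma. Both 5 h groups carry the numbers 1 to 4, and deviations from the group means correlated between same-numbered arrays at 0.354, 0.584, 0.467 and 0.896. All were above 0.1, so the number also entered a fit as a block, although array 4 against the rest makes this pattern. The number of arrays limits the precision. The fits without the number as a block were run on simulated data with independent noise for each array. The fits with that block were not. Python 3.11.15 with numpy 2.4.6, pandas 2.3.3 and matplotlib 3.10.9 handled tables and plots.

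The genes, lists and tests were chosen with earlier results of these data known. A fixed rule named 21 genes of the amino acid and growth responses always. It also took the 10 largest rises and falls past the test and up to 10 each way among genes of at least 0.5 at all hours. For each hour-only rule it took 5 each way, and in each list described up to 4 members past the test. It was planned for contrasts between hours as well, but the fit without the replicate block called 0 genes there. The genes named for those contrasts are all that the fit with that block called, and were not chosen by the rule. Others are named where the text says so or complete a small count. The alternatives were renormalization, centring, filters, row choice, another variance prior, no hour block, all 16 arrays, the replicate block, unnamed rows and leaving out hours or arrays.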

Additional observations from a re-analysis of the deposited data

Results flagged for a closer look

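Each 5 h group of 4 arrays was examined for 1 array far from the other 3 in 53 named genes, 106 groups in all, where chance alone gives about 1 in 20. Such an array was found in 18 groups, and 17 of the 18 were arrays numbered 4. In control cells the array numbered 4 stood apart, with log2 levels of 7.90 for Atf3, 10.15 for Cx3cl1, 10.14 for Ddit4, 9.11 for Egr1, 10.59 for Hbp1, 7.83 for Klhdc8a, 6.50 for Lif, 9.09 for Neto2, 9.30 for Slc7a1 and 10.70 for Zfp36l1. In deprived cells the array numbered 4 stood apart at 10.59 for Ddit4, 10.29 for Egr1, 9.33 for Neto2, 8.42 for Ranbp6, 8.32 for Rrs1, 11.67 for Slc7a1 and 12.19 for Txnip. The remaining case was the deprived array numbered 2 at 7.37 for Klhdc8a. These arrays set the spread of the tests at single hours.

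Differences between hours were called in limma with the replicate block and not without it. The 1 h difference minus the mean of the 2 and 3 h differences was -2.60 for Egr1, -1.72 for Dusp6, -1.48 for Stk40, -1.46 for Ddit4, -1.30 for Hes1, -1.17 for Errfi1 and -1.12 for Ndel1. It was 1.40 for Snord118, 1.55 for Snora44 and 1.73 for Snord33. The 3 h difference minus the mean of the 1 and 2 h differences was 2.28 for Egr1. The 3 h difference minus the 1 h difference was 3.26 for Egr1, 2.07 for Dusp6, 1.82 for Ddit4, 1.73 for Stk40, -1.42 for Snord118 and -1.86 for Snord33.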

How the results depend on the processing

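The number of genes called for the mean of 1 to 3 h, 35 as reported, was 10 with all 16 arrays, 114 with array medians centred and 119 with a trended, robust variance prior. It was 0 without the hour block and 0 with unnamed rows included. Leaving out 1 hour gave 5 (without 2 h: Arrdc3, Phlda1, Ccl2, Zfp931 and Sesn2) to 536 (without 1 h). The other settings planned gave 31 to 52, and all 35 genes were called both without 1 h and with medians centred. Settings added after the data were seen gave 276 with all 16 arrays and the replicate block, 324 with all 16 arrays less those numbered 4, and 7 with unnamed rows except those numbered below the lowest named row. Those 6617 rows had a median residual SD of 0.186 against 0.0839 for named genes, and the prior degrees of freedom were 3.25 with all rows and 7.04 with named genes. No named gene changed its direction past the threshold in any setting run.

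For single hours, 0 as reported, the replicate block gave 28, 85 and 30 calls at 1, 2 and 3 h. For contrasts between hours it gave 10 (1 h against the others), 1 (3 h against the others: Egr1) and 6 (3 h minus 1 h), and at 5 h 3632 against 820. Leaving out both 5 h arrays numbered 4 gave 35, 96 and 50 at single hours, 9, 1 (Egr1) and 4 (Egr1, Dusp6, Ddit4 and Chka) for these contrasts, and 2695 at 5 h. Quantile normalization again gave 3 at 2 h (Fgf2, Ramp3 and Herpud1) and 2 at 3 h (Chac1 and Herpud1), and the trended prior 1 at 3 h (Chac1). Leaving out 1 array of the 5 h groups gave 0 to 1 at 1 h (Dusp6), 0 to 1 at 3 h (Chac1) and 382 to 1066 at 5 h. Genes alike at all hours numbered 114 at a minimum of 0.3 and 2 at 1, and the hour-only rule at 1 and under 0.5 elsewhere gave 13. The causes were not tested. With 1 array per hour and treatment, an effect of a single sample and an effect of the hour cannot be told apart.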

Other observations

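The core letters of the cyclic AMP response element, TGACGTCA, occurred in 3 of 24 promoters of the early falls (12.5%), those of Plk2, Ranbp6 and Tbcc. These 24 cover 18 of the 25 falls; the other 7 were not searched. They occurred in 0 of 13 promoters of the early rises and in 2.37% of 19116 promoters of all genes. Among immediate early genes 4 of 51 promoters held them (Btg2, Dusp1, Maff and Plk2) and among ERK feedback genes 2 of 20 (Epha2 and Errfi1). The palindrome reads the same on both strands and shares no full match with TGATGNAA.

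The number of genes that differed by at least 0.5 grew from 45 higher and 111 lower at 1 h to 157 and 195 at 2 h and 168 and 219 at 3 h. The SD of the difference over all genes was 0.17, 0.18 and 0.2 at these hours. Levels over genes had an SD of 2.19 on the control 3 h array and 2.09 to 2.14 on the other early arrays. Whether this bears on the counts was not tested. At 1 or more, the counts were 4 higher and 21 lower at 1 h, 12 and 24 at 2 h, and 18 and 9 at 3 h, so that large falls outnumbered large rises at 1 h and the reverse held at 3 h. Across genes, the differences correlated at 0.17 between 1 and 2 h, 0.16 between 1 and 3 h and 0.39 between 2 and 3 h.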
